A study of Homo sapiens with 2 samples.

Results

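The genes described here are the tubulins and a set of microtubule-associated proteins, measured in the human pancreatic adenocarcinoma line Panc1. They were chosen by name, as 36 genes of 19775 with a probe set of their own, and they were read by 114 of the 41097 probe sets that carry exactly 1 gene symbol. A probe set is a group of short probes against 1 transcript or a few similar ones. The study compared a Panc1/syk-wt population, transfected with wild-type syk, with a Panc1/mock population, transfected with the vector only. SYK is a non-receptor tyrosine kinase, and the question was which transcripts differ when it is put back into these cells. Both were stable cell populations kept under hygromycin selection for 2 months, held below confluence and collected at about 70% confluence. In the title of the series the mock cells are called drug-resistant. With 1 array from each population there was no replicate, every value below is a single measurement, no difference could be tested, and the effect of the transgene cannot be told apart from other differences between 2 populations, RNA preparations or arrays.

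Microtubules are hollow polymers of alpha- and beta-tubulin dimers, started from rings that contain gamma-tubulin. They grow and shrink mainly at their plus ends, where EB proteins gather and recruit other plus-end proteins, while lattice proteins bind along the wall of the polymer and stathmins bind free dimers and keep them from assembling. In epithelial and carcinoma cells the system carries vesicles, shapes the cell and builds the mitotic spindle, and taxanes and vinca alkaloids act on it.

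All values are log2 signals as deposited, and every difference is syk minus mock. A gene was read by its brightest probe set on average, and it counted as measured when this average reached 4.25, the 50th percentile of all probe sets. The highest of 27 control probe sets against bacterial transcripts read 4.77, and a value at or below this level was treated as a bound only. The level rests on 1 control probe set, since the next highest read 3.61. The arrays had medians of 4.24 (syk) and 4.26 (mock) and correlated at r = 0.98 across probe sets. The brightest SYK probe set read 4.73 on the syk array and 4.27 on the mock array, both at or below 4.77. The other SYK probe sets were dimmer on both arrays and differed by -0.09, -0.07 and -0.27. The transgene thus gave no clear check of the labels. The ACTB control, which compares both ends of a transcript, differed by 2.37 between its ends on the syk array and by 1.95 on the mock array, and the GAPDH control by 0.32 and 0.19. This gap runs along with each difference below, and its part in them was not tested. Of the markers of ductal epithelium 6 of 6 that could be matched were above 4.77 on both, although they did not match in level. KRT19 read 9.44 in syk cells and 10.9 in mock cells (2.72-fold lower), KRT8, KRT7 and KRT18 differed by -0.76, -0.49 and -0.23, and EPCAM and SOX9 by 0.30 and 0.34. Their part in the differences below was not tested. None of the acinar, endocrine, leukocyte, endothelial or fibroblast markers was above 4.77 on either array. Among 6 neuronal markers 2 were above it on the syk array and 3 on the mock array, namely SYT1, SYN1 and, in mock cells alone, SNAP25.

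Few of the genes differed strongly, and those that did went both ways. MTUS1 and MAP7, which bind microtubules, were higher in the syk cells, and NAV1 and STMN3 were lower. The alpha- and beta-tubulin isotypes lay below 0, TUBA1A and TUBB6 by close to 2-fold and TUBA1B by so little that median centring turned its sign. Each core plus-end protein differed by less than 1.5-fold, and their median of -0.24 was close to the -0.27 of these tubulins. Of the 36 genes 33 were measured, of which 2 were higher and 2 were lower by 2-fold or more, or 12.1%, against 7.26% of all 12814 measured genes (3.61% higher and 3.65% lower). At this size the share lies near the background. At 1.5-fold, a level chosen after the values were seen, 3 were higher and 7 lower, or 30.3% against 22.7% of all measured genes (12.2% higher and 10.5% lower). With values under the floor raised to it, 24 of the 31 measured genes above the floor on at least 1 array lay below 0, or 77.4%, against 47.6% of all 11845 such genes, and their median difference was -0.19 against 0.02. In bulk RNA fewer cells with a transcript and less of it per cell cannot be told apart. For scale, where 1 gene had several probe sets past the filter (6028 genes), their differences had a pooled SD of 0.35. It covers probe behaviour and transcript variants, and no variation between cultures.

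**Figure D1:**
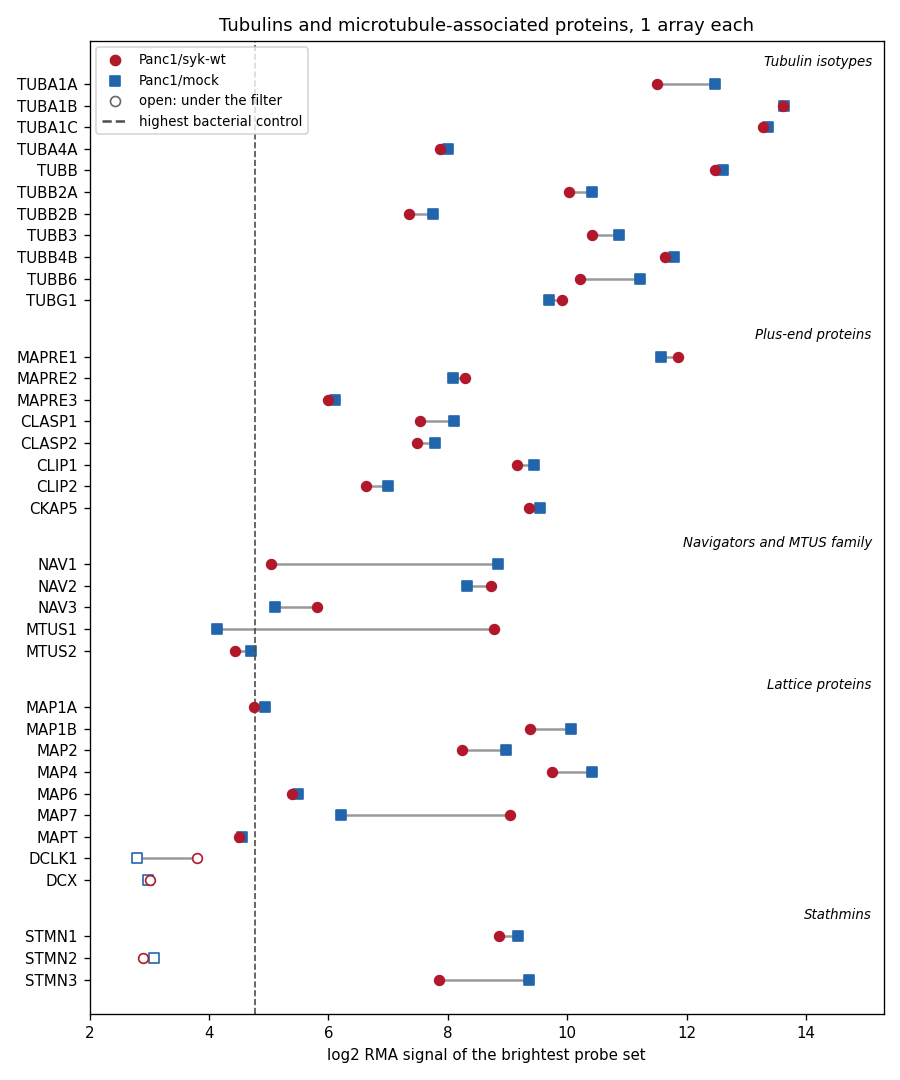
Log2 signal of the brightest probe set of each of the 36 genes on the syk array (red circles) and the mock array (blue squares), grouped by role, 1 array each. Open symbols mark the 3 genes under the filter, and the dashed line is the highest bacterial control, 4.77. The long connecting lines are those of NAV1, MTUS1, MAP7 and STMN3.

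The 10 alpha- and beta-tubulin isotypes, which build the polymer, all had a lower deposited value in the syk cells, between -0.996 and -0.01, with a median of -0.27, although TUBA1B stood at 0.005 when each array was centred on its median and its plain _at probe set, at 0.17, lay under the floor on both arrays. The median over the 1426 genes with a mean at or above 10, where most tubulins lie, was 0.02. No isotype reached 2-fold (0 of 11 with TUBG1), and 2 of the 11 passed 1.5-fold, or 18.2%. Among the bright genes 2.95% passed 2-fold and 15.8% passed 1.5-fold. Both isotypes past 1.5-fold were lower, as were 119 of the 1426 bright genes. TUBA4A, TUBB2B and TUBG1 have means under 10 and so lie outside this background. So few isotypes cannot be set apart from it. TUBB6, a widely expressed class of beta-tubulin, read 10.2 in syk cells and 11.2 in mock cells, a difference of -0.996 and just under 2-fold (1.99). TUBA1A, an alpha-tubulin known for its part in brain development, read 11.5 in syk cells and 12.5 in mock cells, a difference of -0.96 (1.95-fold). Among the 1426 bright genes, 29 had a difference as low as that of TUBB6 and 37 one as low as that of TUBA1A, counting each gene itself. Both isotypes rest on 1 probe set. The 10 measured neighbours of TUBB6 on chromosome 18, 5 on each side, ran from -1.06 to 0.56 with the floor, with a median of -0.20. Of these neighbours 1 was at least 2-fold lower and 0 higher. The part of this surrounding region in the TUBB6 difference was not tested.

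The other alpha-tubulins stood close to 0. TUBA1B, one of the main alpha-tubulins of dividing cells, read 13.6 on both arrays, and its 5 bright probe sets lay between -0.07 and -0.01. TUBA1C read 13.3 in syk cells and 13.4 in mock cells. TUBA4A read 7.87 in syk cells and 8.01 in mock cells. TUBA1B, TUBA1A and TUBA1C lie in that order, next to each other, on chromosome 12 of the RefSeq assembly. The isotype whose probe set differed by near 2-fold thus sits between both isotypes whose probe sets stood near 0. Above the floor TUBA1B and TUBA1C were read only by probe sets ending in _x_at, which hold probes that match other sequences too. These read between 13.28 and 13.63, and the highest value on the arrays was 14.6. The part of shared probes and of high signal in this contrast was not tested. The 10 measured neighbours of TUBA1A, 5 on each side, differed by between -0.25 and 0.21, and 0 of them passed 2-fold.

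The beta-tubulins other than TUBB6 were lower by smaller amounts. TUBB, the major isotype of many cultured cells, read 12.5 in syk cells and 12.6 in mock cells, with its 3 probe sets between -0.34 and -0.15. TUBB4B read 11.6 in syk cells and 11.8 in mock cells. TUBB3, known as a neuronal isotype that many carcinomas also express and that has been linked to taxane resistance, read 10.4 in syk cells and 10.9 in mock cells, and its second probe set differed by -0.29. TUBB2A read 10.02 in syk cells and 10.4 in mock cells (-0.39), and TUBB2B read 7.34 in syk cells and 7.74 in mock cells (-0.40). TUBG1, the gamma-tubulin that nucleates microtubules, was alone above 0 among the 11 tubulins chosen by name. It read 9.91 in syk cells and 9.69 in mock cells (0.22).

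The isotypes cannot be read fully apart. By the naming of these arrays, probe sets ending in _x_at hold probes that match other sequences too, and 14 of the 20 tubulin probe sets above the floor are of this kind. These 14, over 6 genes, ran from -0.45 to -0.01, and 14 of 14 lay below 0. The 5 probe sets ending in plain _at, which cover 5 genes, ran from -0.996 to 0.22 with 4 below 0. The single TUBA1A probe set ends in _s_at, which marks probes shared by several transcripts. One further probe set names TUBB2A and TUBB2B together and was left out.

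The promoters of TUBA1A and TUBA1B are shown because the probe sets of these neighbours differed so unequally. The pair was thus picked by its values, and the window of TUBA1C, which also stood near 0, is not shown. Each sequence holds the 250 bases before the start of the gene in RefSeq (GRCh38.p14), written in the direction of transcription. Capitals mark matches, on either strand, to TATANA, the core of the usual box near the start, to CCAAT, which NF-Y binds, and to GGGCGG, which Sp1 binds. The TUBA1A window (chr12:49189081-49189330, minus strand) and the TUBA1B window (chr12:49131396-49131645, minus strand) read:
TUBA1A: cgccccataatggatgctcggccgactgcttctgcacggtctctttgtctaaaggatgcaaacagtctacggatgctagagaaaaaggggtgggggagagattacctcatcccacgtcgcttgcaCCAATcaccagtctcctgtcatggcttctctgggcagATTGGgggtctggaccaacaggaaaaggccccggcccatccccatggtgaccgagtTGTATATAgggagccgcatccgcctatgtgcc
TUBA1B: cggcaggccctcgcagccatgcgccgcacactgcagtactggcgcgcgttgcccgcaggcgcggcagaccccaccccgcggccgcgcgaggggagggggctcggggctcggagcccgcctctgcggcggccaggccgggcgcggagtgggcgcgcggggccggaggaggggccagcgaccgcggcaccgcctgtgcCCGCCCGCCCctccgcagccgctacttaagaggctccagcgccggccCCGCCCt
The TUBA1A window held 3 overlapping matches to TATANA in 1 stretch that begins 32 bases before the start, 2 to CCAAT and 0 to GGGCGG. The TUBA1B window held 3 matches to GGGCGG, of which 2 overlap, and 0 to either of the others. Of 35116 RefSeq promoter windows of this length 17.7% held TATANA, 32.0% CCAAT and 42.6% GGGCGG. These matches describe the letters alone.

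Stathmins, which bind tubulin dimers, parted in level and in difference. STMN3, a stathmin known from neurons, read 7.85 in syk cells and 9.36 in mock cells, a difference of -1.50 or 2.84-fold lower. Of 12814 measured genes 181 had a deposited difference as low, and 160 with both arrays floored. Its other probe set did not exceed 4.77 on either array, so the difference rests on 1 probe set, and the mean over both gave -0.77, under 2-fold. STMN1, the form common in dividing cells, read 8.85 in syk cells and 9.17 in mock cells (-0.32). STMN2 read 2.90 in syk cells and 3.08 in mock cells, under the floor on both arrays. Of the 6 neuronal markers only SYT1 and SYN1 were above the floor on both arrays. SYT1 read 6.63 in syk cells and 7.17 in mock cells (-0.54), SYN1 differed by -0.07, and SNAP25, with its syk value under the floor, by -0.13 when floored. The summed log2 value of the 6 was 27.8 in syk cells and 30.0 in mock cells, in which values under the floor are included. Their part in the STMN3 difference was not tested. Of these markers RBFOX3, ELAVL4 and GAP43 were at or below 4.77 on both arrays.

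The STMN3 window (chr20:63652767-63653016, minus strand) is shown as that of the stathmin that differed, with capitals as above:
STMN3: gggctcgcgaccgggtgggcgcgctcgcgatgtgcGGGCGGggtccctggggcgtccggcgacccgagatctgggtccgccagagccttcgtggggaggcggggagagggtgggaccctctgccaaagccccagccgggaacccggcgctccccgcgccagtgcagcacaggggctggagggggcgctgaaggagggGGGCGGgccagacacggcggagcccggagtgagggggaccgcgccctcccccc
It held 2 matches to GGGCGG and 0 to TATANA or CCAAT. The 10 measured neighbours of STMN3 on chromosome 20 had a median difference of -0.03, with 1 past 2-fold, which was higher.

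Of the 8 core plus-end proteins 0 passed 1.5-fold, against 22.7% of all measured genes, a share from which so few genes cannot be set apart. Their median was -0.24, with 6 of 8 below 0. This count depends on the probe set chosen. With the mean over probe sets, values under the floor included, the median was -0.05, and MAPRE3 and CLIP1 turned to 0.07 and 0.01. MAPRE1, or EB1, which tracks growing plus ends and recruits the others, read 11.8 in syk cells and 11.6 in mock cells (0.27), and MAPRE2 read 8.28 in syk cells and 8.09 in mock cells (0.20). MAPRE3 was at 5.99 in syk cells and 6.11 in mock cells. CLASP1, which rescues shrinking microtubules near the cell edge, had the largest difference of the 8, at 7.54 in syk cells and 8.11 in mock cells (-0.57). Its relative CLASP2 differed by -0.30 and the linker proteins CLIP1 and CLIP2 by -0.29 and -0.37. CKAP5, a polymerase that adds tubulin to plus ends, differed by -0.19. Apart from CLASP1 and CLIP2, each of these was smaller in size than the pooled SD of 0.35 between probe sets of 1 gene. This SD holds no variation between cultures, so it sorts no gene as changed or unchanged.

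The navigators and the MTUS family held the largest differences of all the genes, in opposite directions. MTUS1, which encodes microtubule-binding proteins described as tumour suppressors, read 8.78 in syk cells and 4.14 in mock cells by its brightest probe set. The mock value lay under the floor, so MTUS1 was at least 16.1-fold higher in the syk cells. The other MTUS1 probe sets read 6.65 in syk cells and 3.99 in mock cells, 5.07 in syk cells and 4.21 in mock cells, and 4.92 in syk cells and 3.58 in mock cells. All 4 were thus above the floor in the syk cells and below it in the mock cells, and their floored differences ran from 0.16 to 4.01. The brightest 2 end in _s_at, and the brightest that ends in plain _at, with its mock value under the floor, gave a floored difference of 0.31, a lower bound that does not settle whether it passed 2-fold. Its relative MTUS2, which binds EB1, was under the floor on both arrays, at 4.43 in syk cells and 4.71 in mock cells.

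NAV1, a large protein that binds plus ends in migrating neurons, was the lowest of the genes, at 5.04 in syk cells and 8.83 in mock cells, a difference of -3.79 or 13.9-fold lower. Of 12814 measured genes 4 had a difference as low, with or without the floor. The next NAV1 probe set read 4.995 in syk cells and 7.72 in mock cells. With the floor its 6 probe sets above 4.77 ran from -3.79 to -0.11, and 6 of 6 lay below 0. Another 2 were at or below 4.77 on both arrays. With the mean over all 8 probe sets the difference was -1.83, and with their median -2.29. The other navigators did not share this direction. NAV2 read 8.73 in syk cells and 8.32 in mock cells (0.41), with its 3 probe sets above the floor between 0.31 and 0.62, although it stood at -0.16 with probe sets ending in plain _at alone, all of them under the floor. NAV3 read 5.81 in syk cells and 5.11 in mock cells (0.70, 1.63-fold higher), and its other 4 probe sets lay under the floor on both arrays. With the median over its 5 probe sets the NAV3 difference turned to -0.27.

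**Figure D2:**
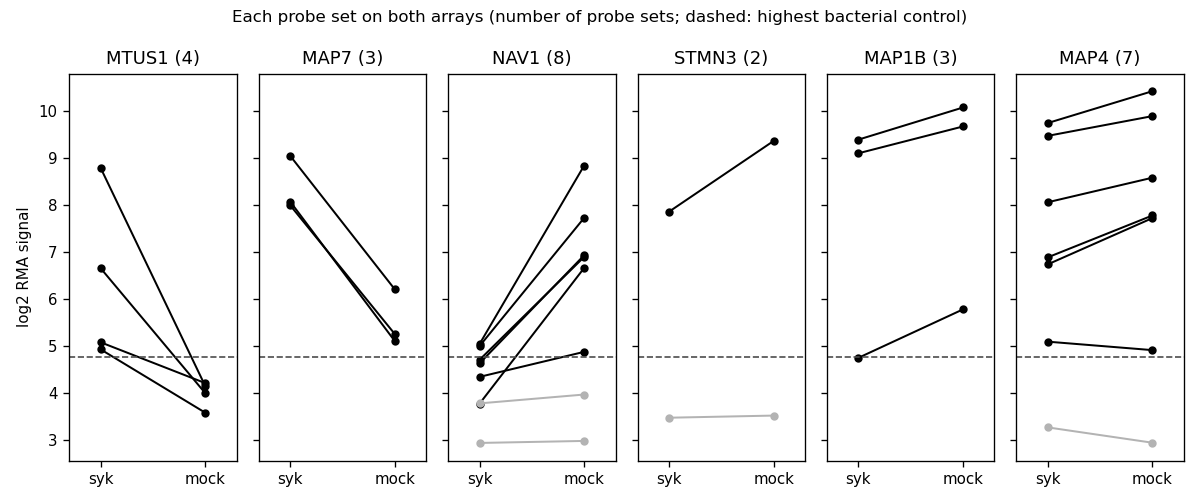
Log2 signal of every probe set of 6 genes on the syk array (left in each panel) and the mock array (right), a line per probe set, grey where both values are at or below the dashed floor of 4.77. All MTUS1 and MAP7 lines are higher in syk, the 6 black NAV1 lines are lower in syk, and STMN3 rests on 1 line.

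The NAV1 window at the outermost of its 2 starts (chr1:201648416-201648665, plus strand) is shown as that of the gene with the lowest difference:
NAV1: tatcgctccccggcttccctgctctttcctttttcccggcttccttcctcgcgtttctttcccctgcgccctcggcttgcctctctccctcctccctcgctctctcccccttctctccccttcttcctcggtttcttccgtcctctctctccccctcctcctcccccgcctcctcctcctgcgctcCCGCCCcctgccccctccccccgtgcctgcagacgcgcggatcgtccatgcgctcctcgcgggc
It held 1 match to GGGCGG and 0 to TATANA or CCAAT. Of the 10 measured neighbours of NAV1 on chromosome 1, 5 on each side, 0 passed 2-fold with the floor, and 1 was at least 2-fold lower without it, with a median of -0.30.

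Of the measured lattice proteins MAP7 was higher by its brightest probe set and the other 6 were not, with MAP4, MAP1B and MAP2 at least 1.5-fold lower. MAP7, or ensconsin, which binds the microtubule wall and recruits kinesin-1 in epithelial cells, read 9.04 in syk cells and 6.20 in mock cells, a difference of 2.84 or 7.15-fold higher. Its other probe sets read 7.99 in syk cells and 5.25 in mock cells, and 8.07 in syk cells and 5.10 in mock cells. All 6 values were above the floor and the 3 differences lay within 2.74 to 2.97. The NAV1 probe sets above the floor on both arrays lay farther apart, at -3.79 and -2.73. All MTUS1 differences are bounds, so their spread cannot be compared. Of 12814 measured genes 29 had a deposited difference as high as that of MAP7, and 18 with both arrays floored. Of its 10 measured neighbours on chromosome 6, 2 were at least 2-fold higher and 0 lower, with a median of 0.24. The MAP7 window at the outermost of its 4 starts (chr6:136550423-136550672, minus strand) is shown as that of a gene whose probe sets differed by nearly the same amount:
MAP7: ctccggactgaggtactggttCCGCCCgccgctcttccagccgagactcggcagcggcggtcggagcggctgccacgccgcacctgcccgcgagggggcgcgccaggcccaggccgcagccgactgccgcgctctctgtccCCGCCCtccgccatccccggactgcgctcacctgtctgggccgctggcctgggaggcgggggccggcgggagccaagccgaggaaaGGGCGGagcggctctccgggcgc
It held 3 matches to GGGCGG and 0 to TATANA or CCAAT. Which start the cells use was not analysed here for either gene.

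MAP4, the main lattice protein outside the nervous system, read 9.74 in syk cells and 10.4 in mock cells, a difference of -0.68 or 1.60-fold lower. Of its 6 probe sets above the floor 5 lay below 0, between -0.98 and -0.42, and the dimmest differed by 0.18. MAP1B, which guides growing axons and also occurs in cultured cells, read 9.38 in syk cells and 10.1 in mock cells (-0.68, 1.61-fold lower). Its second probe set differed by -0.57, and the dimmest read 4.75 in syk cells and 5.78 in mock cells, at least 2.01-fold lower. MAP2, the protein of dendrites, read 8.23 in syk cells and 8.97 in mock cells (-0.74, 1.67-fold lower), with -0.24 in its other probe set. By their brightest probe set these differences were larger in size than the pooled SD of 0.35 between probe sets of 1 gene, which holds no variation between cultures.

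The remaining lattice proteins were dim. MAP6, which protects microtubules from cold, read 5.39 in syk cells and 5.49 in mock cells, and MAP1A read 4.75 in syk cells and 4.94 in mock cells. MAPT, or tau, was at or below 4.77 in all 6 of its probe sets on both arrays. The neuronal proteins DCX and DCLK1 were under the filter as well as the floor, so that their values give only bounds. The brightest DCLK1 probe set read 3.79 in syk cells and 2.80 in mock cells, and its measured difference of 0.999 is therefore not given as a fold. Of the 6 measured lattice proteins above the floor on at least 1 array, 5 lay below 0.

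**Figure D3:**
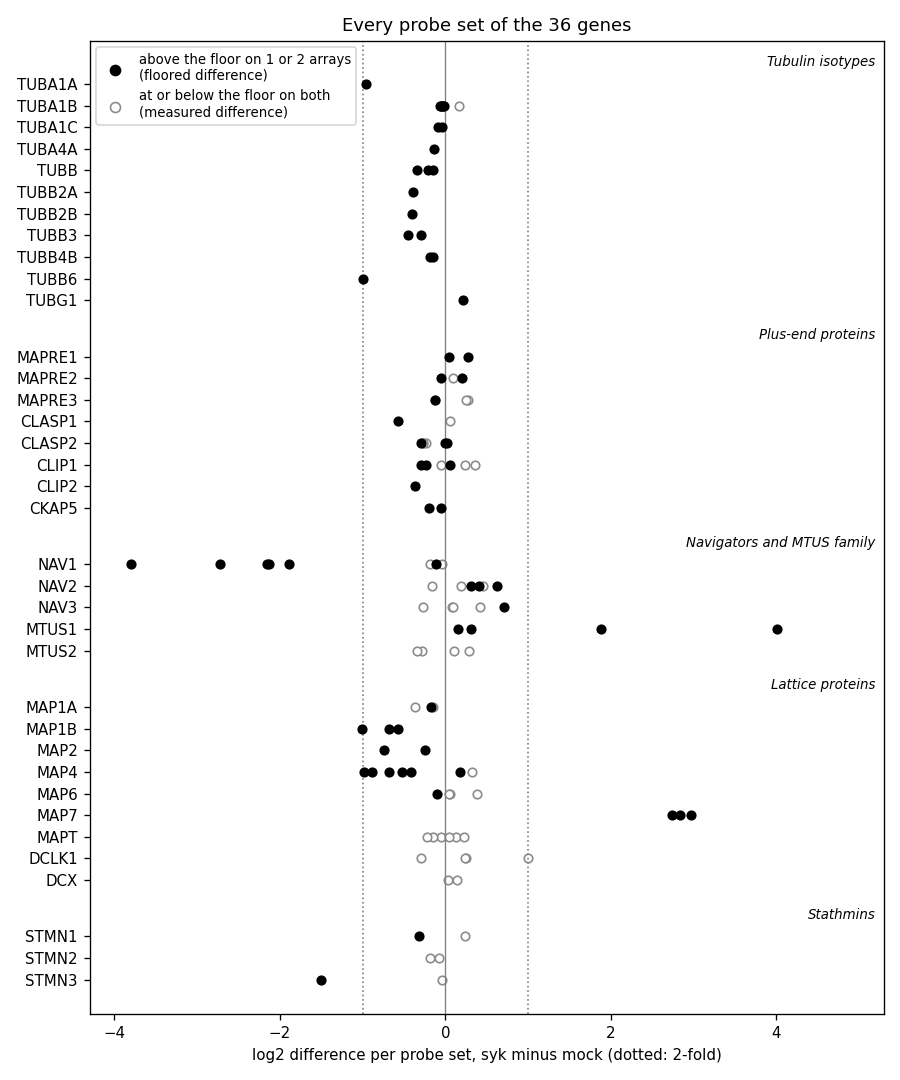
Log2 difference, syk minus mock, of every probe set of the 36 genes, grouped by role. Filled points are the 67 probe sets above the floor on 1 or 2 arrays, with both values raised to at least 4.77, and open points are the 47 at or below it on both. Dotted lines mark 2-fold. MAP7 points lie close together, NAV1 and MTUS1 points are spread, and all MTUS1 and some NAV1 points are bounds.

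Set among all measured genes, the 4 genes past 2-fold were of middle brightness, while TUBB6 and TUBA1A lay among the genes with a mean at or above 10, of which 1.96% were lower and 0.982% higher by 2-fold or more. Counted by probe set and with the floor, 5 of the 69 past the filter were higher and 7 lower by 2-fold or more, over 5 genes in all, as were 0 of those under the filter. Of all probe sets with 1 gene symbol past the filter, 2.8% were higher and 3.1% lower by as much. The 5 genes are MTUS1, MAP7, NAV1, STMN3 and, by its dimmest probe set, MAP1B. Of the 10 measured neighbours of MTUS1 on chromosome 8, 2 were higher and 0 lower by 2-fold or more with the floor, with a median of 0.41 and a range from -0.64 to 1.69. The part of this surrounding region in the MTUS1 difference was not tested.

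**Figure D4:**
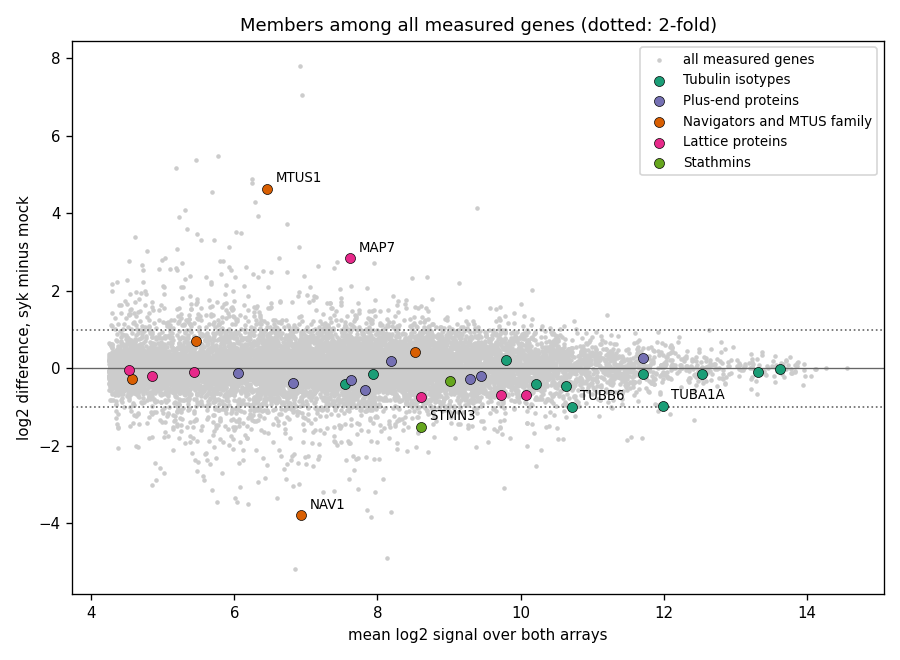
Log2 difference, syk minus mock, against the mean log2 signal over both arrays for the 12814 measured genes (grey) and the 33 measured tubulins and microtubule-associated proteins, coloured by role. Dotted lines mark 2-fold. MTUS1 and MAP7 lie above, NAV1 and STMN3 below, and TUBB6 and TUBA1A next to the lower line at high signal.

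Genes that act on the same system but were not among the 36 were read from 7 lists chosen for their textbook roles. Of 120 measured genes over these lists 4 were higher and 4 lower by 2-fold or more, or 6.67%, against 7.26% of all measured genes, and the median was 0.04. Among the 19 folding cofactors and chaperone subunits that make assembly-ready tubulin 14 lay above 0 and 5 below it, or 26.3%. Of all measured genes 47.8% lay below 0. The median of the 19 was 0.21, against 0.01 over all measured genes and -0.27 for the alpha- and beta-tubulins, and 0 passed 2-fold. For some of the 19 the sign depended on the probe set chosen. The chaperonin subunit CCT7 read 11.9 in syk cells and 11.4 in mock cells (0.54). The prefoldin subunit PFDN2 read 11.0 in syk cells and 10.5 in mock cells (0.52), while ARL2, a small GTPase of the cofactor pathway, read 8.88 in syk cells and 9.57 in mock cells (-0.70). With the floor the 4 other measured tubulins lay between -0.11 and 0.05 by their brightest probe set. TUBA4B was at -0.11 and TUBG2, with its syk value under the floor, at -0.08. TUBD1, delta-tubulin, was at 0.05, although its 3 probe sets ran from -0.55 to 0.31.

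Of 16 tubulin-modifying enzymes 1 passed 2-fold. TTLL12, of the tubulin tyrosine ligase-like family, read 8.62 in syk cells and 7.52 in mock cells (2.15-fold higher), with 1.10 in its second probe set. TTL, which adds the terminal tyrosine to alpha-tubulin, read 8.94 in syk cells and 9.76 in mock cells (-0.81), although its 3 probe sets above the floor ran from -0.81 to 0.06, and the glutamylase TTLL7 differed by -0.62. Severing and depolymerising proteins had a median of -0.01 over 9 genes, with FIGNL1 at 0.86, KATNAL1, a katanin, at -0.54 and the kinesin KIF18B at 0.45, and 0 passed 2-fold. Genes of minus ends and nucleation had a median of 0.03 over 14 genes. NIN, ninein, which anchors microtubules at the centrosome, read 7.09 in syk cells and 8.10 in mock cells (2.02-fold lower). Its second probe set above the floor differed by -0.48, under 2-fold. MZT2B differed by -0.43 and pericentrin, PCNT, by -0.40.

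Other lattice and plus-end proteins had a median of 0.08 over 26 genes, with 1 at least 2-fold in each direction. MAST4, a microtubule-associated kinase, read 8.39 in syk cells and 6.58 in mock cells (3.50-fold higher), although its 5 probe sets above the floor ran from -0.11 to 2.03. EML1 read 6.62 in syk cells and 7.63 in mock cells (2.02-fold lower), with -0.48, under 2-fold, in its second probe set. MAP1S differed by 0.65. Transport motors had a median of 0.03 over 32 genes, with 2 at least 2-fold in each direction. The dynein intermediate chain DYNC1I1 read 6.29 in syk cells and 4.63 in mock cells, at least 2.89-fold higher. The kinesin KIF13B read 6.43 in syk cells and 5.23 in mock cells (2.29-fold higher). KIF1A, a kinesin of synaptic vesicle precursors, read 6.32 in syk cells and 7.44 in mock cells (2.17-fold lower), and KIF5A, named after its value was seen, was 2.06-fold lower.

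**Figure D5:**
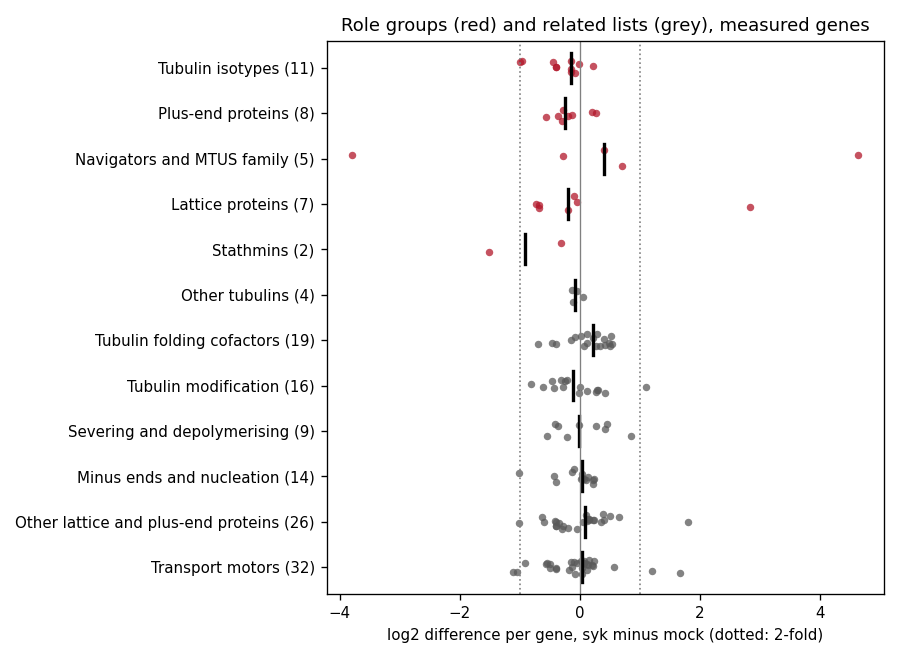
Log2 difference, syk minus mock, of each measured gene in the 5 role groups (red) and in 7 related lists (grey), with the number of genes in brackets and a black bar at the median. Dotted lines mark 2-fold, and vertical scatter within a row has no meaning. Tubulin isotypes lie mostly left of 0 and folding cofactors mostly right of it.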

How the data were processed

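RNA from 1 Panc1/syk-wt and 1 Panc1/mock population was labelled with biotin and hybridised to Affymetrix expression arrays, per the labels' protocols. The deposited table holds log2 signals for 54675 probe sets, which the submitters' processing notes credit to RMA (background subtraction, quantile alignment of the arrays, summary of each probe set) with no version. The log2 scale was taken from the deposited values, which run from 2.14 to 14.6. RMA compresses differences between dim probe sets. Depth does not apply to arrays, and their number limits the precision.

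Gene names came from the platform annotation, in which 41097 had 1 gene symbol, 1801 several and 11777 none used here. All 36 genes matched their current RefSeq gene ID. No array column was left unused. The gene value, the filter, the 2-fold level and the floor are given with the results. No test was possible with 1 array per group. The genes, lists and settings were chosen with earlier results of these data known. The genes named from the related lists are up to 3 per list with the largest floored difference, and KIF5A, added after its value was seen. All 36 genes are named. The gene step was tested on simulated data. Alternatives were median centring, removal of a loess trend (span 0.2), the mean or median over probe sets, probe sets ending in plain _at alone, no filter, the 75th percentile as filter, a filter on the brighter array and the floor. Python 3.11.15, pandas 2.3.3 and statsmodels 0.14.6 were used.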

Additional observations from a re-analysis of the deposited data

How the results depend on the processing

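No paired analysis was possible because each group had 1 array. The median over the measured tubulins and microtubule-associated proteins stayed below 0 under all 9 alternatives run for it, between -0.31 and -0.17, and so did those of the tubulin isotypes (-0.34 to -0.13) and the plus-end proteins (-0.29 to -0.05). The lattice median was -0.68 with the filter at the 75th percentile, over fewer genes. The number of these genes at least 2-fold lower was 1 with the mean and 1 with the median over probe sets, since STMN3 then differed by -0.77, and 3 after loess, with TUBB6 at -1.02. The number at least 2-fold higher was 1 when only plain _at probe sets were used, where MTUS1 read 0.87 against a mock value under the floor, so that this call can be neither kept nor dropped by that probe set, and 1 past the 75th percentile filter, which MTUS1 did not pass. With the mean over probe sets 562 genes in all passed 2-fold (284 higher, 278 lower), and 486 past the 75th percentile filter (220 higher, 266 lower). At 1.5-fold, a level added after seeing the data, 2904 genes passed (1557 higher, 1347 lower), and of the measured members 10 did, 7 of them lower. The cause of these shifts was not tested beyond what each setting's construction shows. No gene of the 4 past 2-fold changed sign under the alternatives run. Of the 33 single genes 9 did under some setting, the largest of them NAV3 at 0.70 (-0.27 with the median over probe sets). Several of these turns rest on values under the floor. Of 189 values for the 33 single genes under alternatives 176 moved by less than 0.35, and the other 13 belong to genes with several probe sets. No alternative addresses variation between cultures.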
